A study of Homo sapiens with 12 samples.

Results

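The genes described here are the cadherins and protocadherins of IMR90 ER:RAS cells, a human lung fibroblast line in which a RAS protein fused to an estrogen receptor domain is switched on by 4-hydroxytamoxifen (4OHT). Members were the protein-coding genes whose symbol is CDH or PCDH followed by a number, together with the genes of the PCDHA, PCDHB and PCDHG clusters, which gave 86 of the 62069 genes in the table. They comprised 35 genes outside the clusters, 15 of PCDHA, 15 of PCDHB and 21 of PCDHG. The names PCDH20, PCDHB16 and PCDHGB5 were not matched to an identifier and are not analysed here.

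RNA-seq was done in 4 groups of 3 libraries. Non-induced cells received no 4OHT, induced cells received 100 nM 4OHT, and 2 further induced groups received 100 nM 4OHT and 1 of the XPO7 shRNAs shXPO7_3 or shXPO7_5. By the labels all cells were at passage 13, were sampled at day 5 of induction and had been grown for 7 days with new medium on day 4, and the study calls the construct of the first 2 groups vector. Separate cultures are not stated for the libraries of a group, and p-values therefore reflect library-to-library spread that may be only technical. XPO7, the nuclear transport receptor targeted by the shRNAs, stood at 137 ± 8.81 CPM (counts scaled to library size; SD, n = 3) in induced cells, at 27.7 ± 1.14 with shXPO7_3 and at 52.2 ± 1.62 with shXPO7_5. Library totals ran from 28534141 to 60397769 counts. All 10 fibroblast markers on a fixed list were above the filter on low counts, whereas KRT5, KRT14, PECAM1, CDH5 and CD3E, markers of keratinocytes, endothelium and T cells, were at 0 in every library. Of the marker lists of other cell types, 5 of 10 epithelial, 4 of 8 endothelial, 4 of 8 neural and 1 of 6 leukocyte markers passed that filter, and the epithelial sum ranged from 39.4 to 58.7 CPM over all libraries. Between induced and non-induced cells 5 of the 10 fibroblast markers fell and none rose, where 26.1% of all genes tested fell and 24.8% rose. DCN (decorin) was lower by a log2 fold change of -3.37. The part of these marker changes in the results below was not tested.

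Classical cadherins are calcium-dependent adhesion proteins that bind the same cadherin on a neighbouring cell and hold the actin cytoskeleton through catenins at their cytoplasmic tail. Protocadherins carry similar extracellular repeats but other cytoplasmic parts. Those of the clusters are best known from neurons, where each variable exon has its own promoter and the choice among promoters gives single cells distinct surface identities, with a conserved element that carries a CGCT box and binding of CTCF described at most of these promoters.

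The cluster promoters are shown first. Genes of PCDHA or of PCDHG differ mainly in the first exons that follow these promoters, whereas each PCDHB gene stands alone. Windows from 250 bases before to 50 bases after the start, from RefSeq on GRCh38.p14, were matched to 68 of the 86 members. Stretches of 30 bases are printed 5′ to 3′ for a few members of each cluster, as examples, with the 4 bases CGCT in capitals; all lie on the plus strand.
PCDHA4 (chr5:140806975-140807004): ggtttggagccacatgatgtCGCTctttac
PCDHA7 (chr5:140834168-140834197): acatgatggccacatgatgtCGCTctttac
PCDHB5 (chr5:141135175-141135204): taaattaggacgcctggtggCGCTgcaggc
PCDHB7 (chr5:141172562-141172591): atccacaaaacgcaaggtggCGCTgctggc
PCDHB10 (chr5:141192295-141192324): tggtggaggccacacggtggCGCTgcaggc
PCDHB14 (chr5:141223259-141223288): aacatggagacacatggtggCGCTacagga
PCDHGA4 (chr5:141354956-141354985): caggttaagactctgggtgtCGCTgttcac
PCDHGB4 (chr5:141387613-141387642): ctagtgctgactctgggcgcCGCTgttggc
PCDHGB7 (chr5:141417603-141417632): gtcggccagtgcagagcaagCGCTgacgcc

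On the gene's strand the letters CGCT were found in 48 of 49 cluster windows, against 54.3% of all 35116 windows in the table. Within 90 to 30 bases before the start it was found in 40 of 49 cluster windows, against 19.1% of all. The PCDHB promoters shared more than this box. The run of 10 bases held by most PCDHB windows, GGTGGCGCTG, which contains CGCT and was picked after the windows were read, was present on the gene's strand in 11 of 13 PCDHB windows and in none of the 36 windows of the PCDHA and PCDHG clusters, against 0.179% of all windows (0.276% when both strands were searched). The printed stretches of PCDHB5, PCDHB7 and PCDHB10 hold it, and that of PCDHB14 does not. The stretch printed for PCDHGB7 was identical to that of PCDHGB6. These matches describe letters in a window and not binding.

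Of the 86 members, 44 had enough counts to be tested, namely 14 outside the clusters, 9 of PCDHB and all 21 of PCDHG. No single PCDHA gene passed. The 42 members left out had at most 18 counts in any 1 library and included the epithelial cadherins CDH1 and CDH3 and the endothelial cadherin CDH5, and 9 of them were at 0 in all 12 libraries. A low gene enters the test when it is present in enough libraries, so the counts of tested members below describe those 44 and not all members.

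Outside the clusters the family was dominated by 5 genes in non-induced cells. On the scale of CPM per kilobase of exon, which allows levels to be compared between genes, non-induced cells held CDH2 (N-cadherin) at 26.0 ± 0.108, PCDH18 at 24.4 ± 3.82, CDH6 (K-cadherin) at 19.0 ± 1.6, CDH13 (T-cadherin) at 14.7 ± 0.498 and CDH11 (OB-cadherin, typical of mesenchymal cells) at 13.7 ± 0.266 (SD, n = 3). The next gene, CDH24, stood at 3.49 ± 0.302. CDH2 and PCDH18 did not differ beyond the spread of PCDH18. In induced cells PCDH18 headed the list at 30.9 ± 1.61, and CDH2 at 16.6 ± 0.416 lay level with CDH13 at 16.5 ± 0.352. PCDH9 moved from rank 11 to rank 6 among these 14 genes. The length used was that of all annotated exons of a gene, 30944 bases for PCDH9 and 4950 for CDH2, and the levels and ranks depend on it. Without scaling for length, induced cells had 88.4 ± 5.82 CPM of PCDH9 and 82.1 ± 2.06 CPM of CDH2.

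**Figure D1:**
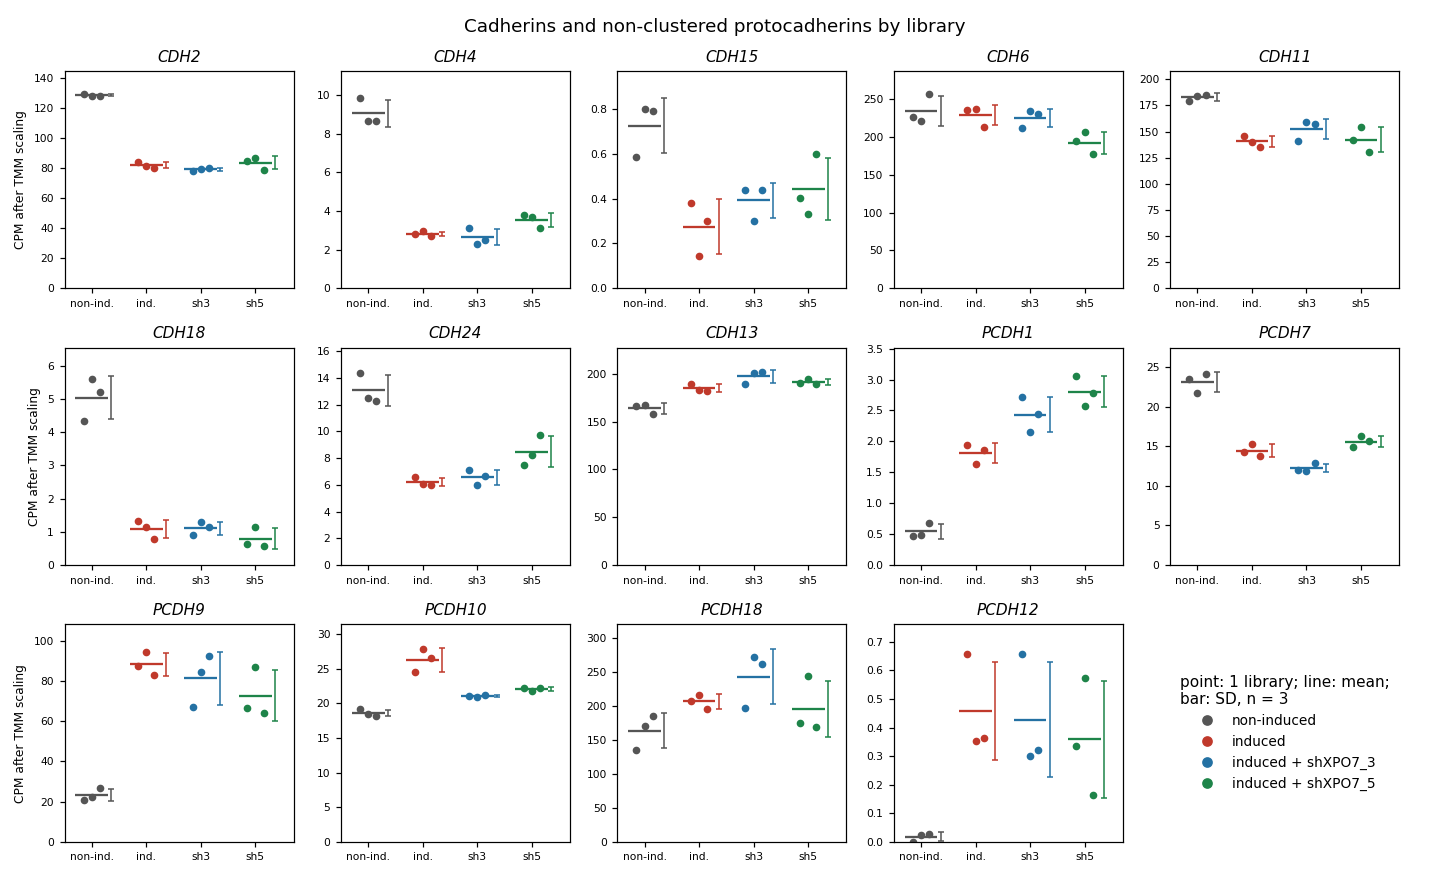
Levels of the 14 tested cadherins and nonclustered protocadherins, with CPM after scaling by trimmed mean of M values (TMM) on the vertical axis and the 4 groups on the horizontal axis; points are libraries, lines are means and bars are the SD (n = 3). CDH2, CDH4, CDH11, CDH18, CDH24 and PCDH7 are below the non-induced range in all 9 induced libraries, and PCDH1, PCDH9, PCDH10, PCDH12 and CDH13 are above it.

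Calls with RAS induction divided about evenly outside the clusters, with 5 members higher and 7 lower of 14, whereas 0 rose and 7 fell of 9 in PCDHB and 1 rose and 5 fell of 21 in PCDHG. Between induced and non-induced cells, 6 of the 44 members rose and 19 fell at an adjusted p below 0.05 in edgeR's quasi-likelihood test. Across all 15284 genes tested 50.9% passed, 24.8% higher and 26.1% lower, and the share of members that passed was close to that of all genes. The median log2 fold change was -0.33 over the 44 members and -0.01 over all genes. Groups did not overlap for 34 of 44 members, against 63.2% of all genes. With upper-quartile scaling, which placed the median of all genes at -0.10, 4 members rose and 25 fell. In bulk RNA, fewer cells with a transcript and less of it per cell cannot be told apart.

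**Figure D2:**
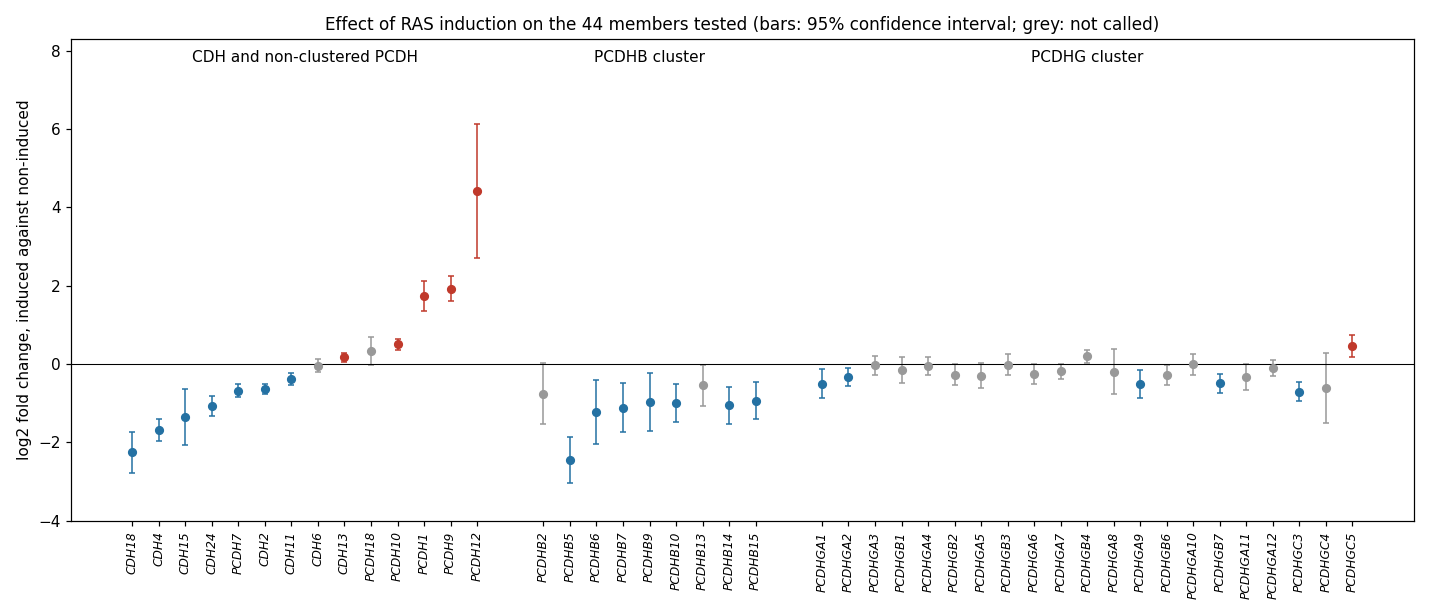
Log2 fold change of the 44 tested members, induced against non-induced, with 95% confidence intervals; red and blue mark members called higher and lower, grey those not called. Values run from -2.44 (PCDHB5) to 4.41 (PCDH12), and the PCDHB points are all below 0.

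Among the classical type I cadherins, the group of N-, R- and M-cadherin, all 3 tested genes fell, where 26.1% of all genes did. CDH2, a cadherin of mesenchymal and neural cells, had 129, 128 and 129 CPM in the non-induced libraries and 84.3, 81.8 and 80.2 in the induced libraries. All 9 induced libraries, with or without an shRNA, lay between 78.0 and 87.1 CPM, below the non-induced range. The log2 fold change was -0.65 ± 0.06 (SE; edgeR, adjusted p = 1.78e-06). CDH4 (R-cadherin; chr20:61252426-61940617 on GRCh38) fell more steeply, from 9.86, 8.65 and 8.64 CPM to 2.79, 2.94 and 2.72, which was 3.21-fold (edgeR, adjusted p = 2.60e-07). CDH15, the M-cadherin of muscle precursors, was scarce at 0.727 ± 0.122 CPM before and 0.276 ± 0.123 after induction (log2 fold change -1.35, edgeR, adjusted p = 0.00429), and 1 shXPO7_5 library at 0.601 CPM reached into its non-induced range of 0.587 to 0.802.

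Type II cadherins divided by gene. CDH18 (ENSG00000145526, chr5:19472951-20575873 on GRCh38), otherwise known from the nervous system, had 4.33, 5.59 and 5.21 CPM in non-induced and 1.31, 1.13 and 0.787 in induced cells. The groups were far apart, and the drop of 4.75-fold (log2 -2.25 ± 0.24 SE; edgeR, adjusted p = 7.44e-06) was the largest among the tested members outside the clusters. CDH24, a type II cadherin that binds catenins, went from 14.4, 12.5 and 12.3 to 6.56, 6.06 and 5.99 CPM (log2 fold change -1.07, edgeR, adjusted p = 6.69e-06). CDH11 fell by 0.38 on the log2 scale, from 183 ± 3.56 to 140 ± 5.36 CPM (edgeR, adjusted p = 0.000989). CDH6 stood at 235 ± 19.8 and 229 ± 13.1 CPM and did not pass (log2 fold change -0.04, 95% interval -0.22 to 0.14; edgeR, adjusted p = 0.718).

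CDH13, T-cadherin, which is held in the membrane by a lipid anchor and has no cytoplasmic tail, differed little. Its libraries had 167, 168 and 158 CPM without and 189, 184 and 182 CPM with induction. The groups did not overlap, and the log2 fold change of 0.17 passed (edgeR, adjusted p = 0.0203). The call was lost without non-induced library C (edgeR, adjusted p = 0.0734) or induced library T (adjusted p = 0.0698). It was also lost with upper-quartile scaling (log2 fold change 0.07, edgeR, adjusted p = 0.365) and without the filter on low counts (adjusted p = 0.132). A fit with a block for the replicate letters did not call it either.

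The nonclustered protocadherins held the strongest rises. PCDH9 (ENSG00000184226, chr13:66302834-67230445 on GRCh38), a delta1 protocadherin of the brain, had 20.9, 22.4 and 26.6 CPM in non-induced and 87.4, 94.7 and 83.2 CPM in induced cells. The lowest of all 9 induced libraries had 64.2 CPM, above any non-induced library, and the rise was 3.79-fold (log2 1.92 ± 0.15 SE; edgeR, adjusted p = 4.18e-07). PCDH1, a delta1 protocadherin of epithelia and airways, rose 3.33-fold from a low level, from 0.463, 0.486 and 0.680 CPM to 1.94, 1.63 and 1.86 CPM (edgeR, adjusted p = 5.92e-06). PCDH7, of the same delta1 group, went the other way, from 23.5, 21.8 and 24.2 CPM to 14.2, 15.3 and 13.8 CPM (log2 fold change -0.68, edgeR, adjusted p = 1.35e-05).

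Of the delta2 protocadherins, PCDH10 (OL-protocadherin) rose from 19.1, 18.4 and 18.2 CPM to 24.4, 27.9 and 26.6 CPM (log2 fold change 0.50, edgeR, adjusted p = 6.49e-05). PCDH18 had 135, 170 and 185 CPM in non-induced and 208, 216 and 195 CPM in induced cells. Its groups did not overlap, but the spread was wide and the log2 fold change of 0.34 did not pass (edgeR, adjusted p = 0.0993).

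PCDH12, a protocadherin of endothelial cells, was at 0, 1 and 1 counts in the non-induced libraries and at 24, 10 and 18 counts in the induced libraries. Scaled for depth, the summed counts of 2 and 52 gave a ratio of 24.7, with an exact 95% interval of 6.51 to 210 that covers counting error only. It passed the filter through the induced groups alone, so that its place among the 6 members counted as higher is a description. The summed level of 8 endothelial markers was 16.9 to 17.6 CPM in non-induced and 35.6 to 37.6 CPM in induced libraries. Of the 4 tested ones ROBO4 rose by 3.50 and TEK fell by 0.98 on the log2 scale, while VWF (0.50) and KDR (0.57) did not pass. The defining endothelial genes PECAM1 and CDH5 were at 0 in all 12 libraries.

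The rises and falls outside the clusters left their summed CPM, which is not scaled for exon length, nearly where it was. Added over the 35 genes, CPM ranged from 930.8 to 1012 in non-induced and from 942.9 to 1010 in induced libraries, and these ranges overlapped.

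The cluster genes lie in 3 arrays on chromosome 5. PCDHA and PCDHG transcripts join a variable first exon to constant exons shared by their cluster, whereas each PCDHB gene stands alone. The sources used here do not give how reads on shared exons were assigned, which leaves the split among PCDHA or PCDHG genes uncertain. The sums over each cluster, made from all its members whatever their counts, are therefore given beside the single genes.

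**Figure D3:**
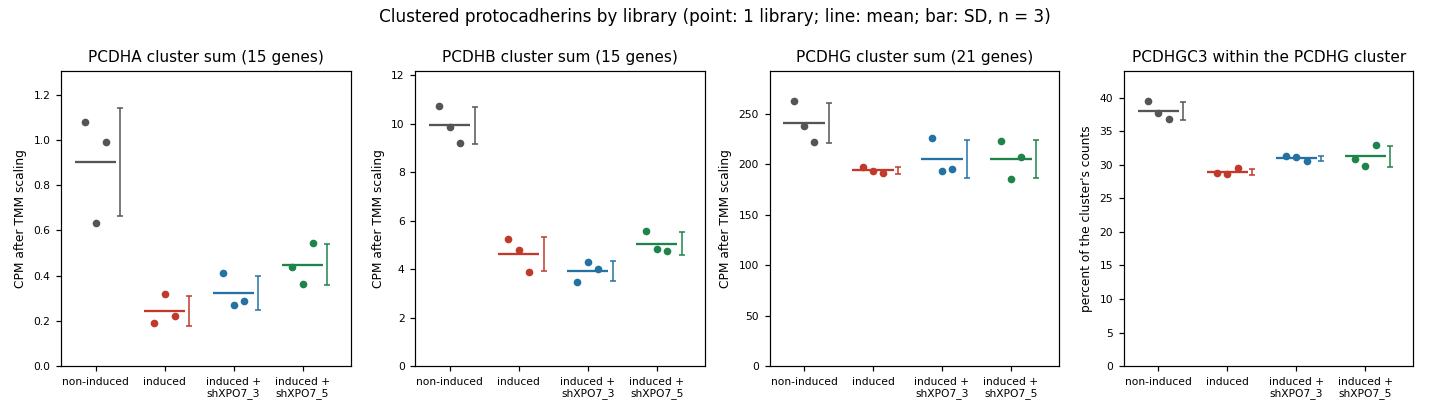
Summed CPM of the PCDHA, PCDHB and PCDHG clusters and, at the right, PCDHGC3 as a percentage of the PCDHG counts; points are libraries, lines are means and bars are the SD (n = 3). In each panel the 3 non-induced libraries lie above the 3 induced libraries.

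All 3 cluster sums fell with RAS induction, with the steepest log2 fold change in PCDHA and the shallowest in PCDHG. PCDHA, spread over 15 genes of which 5 had no count at all, summed to 35, 26 and 35 counts in non-induced and 7, 9 and 11 counts in induced libraries. The groups were well apart, and in CPM the sum went from 0.902 ± 0.238 to 0.244 ± 0.067 (log2 fold change -1.89 ± 0.30 SE; edgeR, adjusted p = 0.000233). PCDHB summed to 10.7, 9.89 and 9.21 CPM without and 5.25, 4.78 and 3.87 CPM with induction (log2 fold change -1.11 ± 0.13 SE; edgeR, adjusted p = 1.57e-05). All 6 induced libraries with an shRNA were also below the non-induced PCDHB range, at 3.46 to 5.59 CPM. PCDHG, the cluster with the most counts, went from 262, 238 and 222 CPM to 198, 193 and 191 CPM (log2 fold change -0.31 ± 0.09 SE; edgeR, adjusted p = 0.0107), and with a correction for GC content and length its log2 fold change was -0.16 (edgeR, adjusted p = 0.00772).

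Within PCDHB, 7 of the 9 tested genes fell and none rose, where 26.1% of all genes fell and 24.8% rose. PCDHB5 (ENSG00000113209, chr5:141135218-141138625 on GRCh38) had 1.67, 1.51 and 1.16 CPM in non-induced and 0.246, 0.284 and 0.262 CPM in induced cells, a drop of 5.44-fold (log2 -2.44 ± 0.27 SE; edgeR, adjusted p = 1.05e-05). It was the steepest fall of any tested member. PCDHB7 went from 1.25 ± 0.288 to 0.585 ± 0.169 CPM (edgeR, adjusted p = 0.00588), PCDHB10 from 1.15 ± 0.190 to 0.569 ± 0.087 CPM (edgeR, adjusted p = 0.00238) and PCDHB14 from 1.42 ± 0.119 to 0.682 ± 0.054 CPM (edgeR, adjusted p = 0.00123). PCDHB6 passed (log2 fold change -1.22, edgeR, adjusted p = 0.0170) but not without induced library A (-0.95, adjusted p = 0.0677) or B (-0.98, adjusted p = 0.0853). PCDHB9 and PCDHB15, named after their values were seen, fell by 0.97 and 0.94 on the log2 scale, and PCDHB9 was lost without any 1 of 5 libraries (non-induced T, A or C, or induced A or B), without the filter and with DESeq2. PCDHB13 (log2 fold change -0.55, edgeR, adjusted p = 0.0736) and PCDHB2 (-0.75, adjusted p = 0.101) did not pass. Each of these genes stayed below 2 CPM in every library, and their transcripts carry no constant exons shared by the cluster.

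**Figure D4:**
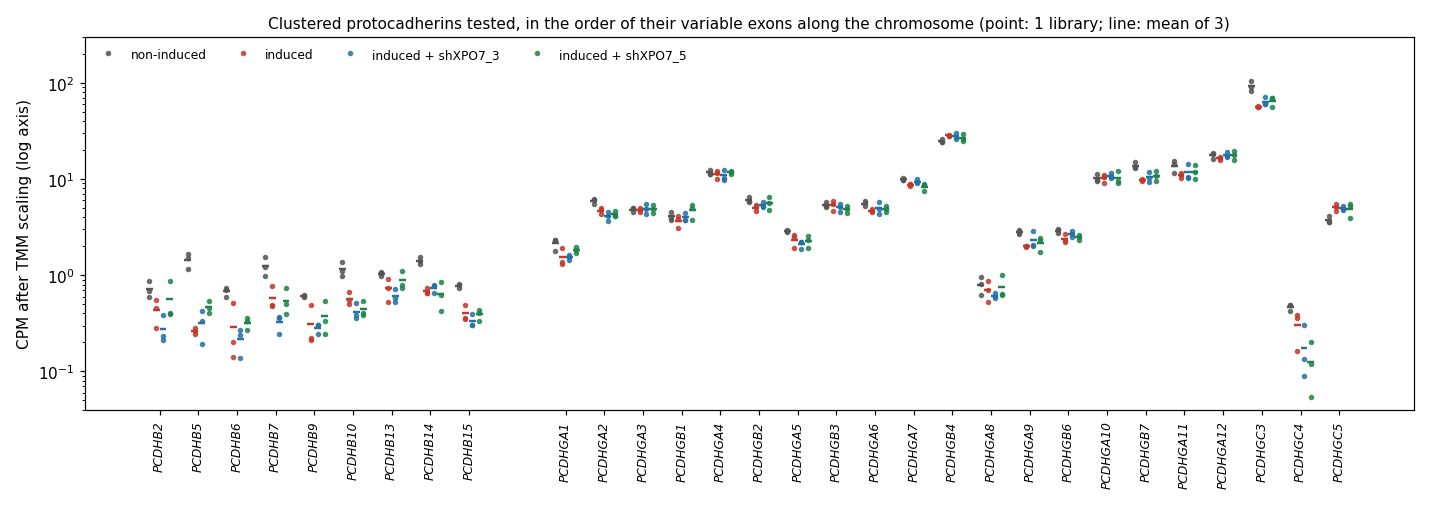
CPM of the 30 tested cluster genes on a log axis, in the order of their variable exons along chromosome 5; points are libraries and short lines are means of 3. PCDHB genes lie below 2 CPM, and in the PCDHG cluster PCDHGC3 has the highest CPM in every group, followed by PCDHGB4, without scaling for length.

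Most of the fall of the PCDHG sum lay in PCDHGC3. This C-type gene at the end of the cluster, which is widely expressed outside neurons, had 104, 89.8 and 82.0 CPM in non-induced and 56.9, 55.5 and 56.3 CPM in induced cells. The induced libraries were closely grouped and clear of the non-induced range (log2 fold change -0.71 ± 0.11 SE; edgeR, adjusted p = 0.000173). As a share of all PCDHG counts PCDHGC3 went from 38.0 ± 1.33% to 28.98 ± 0.429% (SD, n = 3; exact two-sided permutation p = 0.1, the smallest that 3 libraries against 3 allow). The other 20 genes together summed to 159, 148 and 140 CPM without and 141, 138 and 135 CPM with induction, so that these ranges overlapped.

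Among the other PCDHG genes, 5 passed the test. PCDHGA1 fell by 0.51 on the log2 scale (edgeR, adjusted p = 0.0247), a call that was lost without non-induced library T or A or induced library T or B (adjusted p = 0.0659, 0.0778, 0.0913 and 0.0981). Named after their values were seen, PCDHGA2 fell by 0.34, PCDHGA9 by 0.50 and PCDHGB7 by 0.49, and the PCDHGA2 and PCDHGA9 calls were lost without some single libraries of the compared groups (T or A of either group for PCDHGA2, non-induced T or any induced library for PCDHGA9). The PCDHGA1 and PCDHGA2 calls were also lost without the filter on low counts, with DESeq2 and when GC content and length were corrected for, and that of PCDHGA1 in a fit to only the 2 groups. PCDHGC5 alone rose, from 3.73 ± 0.326 to 5.10 ± 0.421 CPM (log2 fold change 0.45, edgeR, adjusted p = 0.0121), and with upper-quartile scaling that call was lost. PCDHGB4, second to PCDHGC3 in CPM not scaled for length, had 25.8, 24.4 and 24.1 CPM in non-induced and 28.7, 28.1 and 28.1 CPM in induced libraries. It did not pass (log2 fold change 0.19, edgeR, adjusted p = 0.0652). Some alternatives did call PCDHGB4, namely the GC content and length correction, a fit to only the 2 groups, and fits without library T or A of shXPO7_5. PCDHGA4 (-0.05), PCDHGA12 (-0.11) and PCDHGA11 (-0.33) did not pass either. Across the cluster, 15 of 21 genes did not pass, and the median log2 fold change was -0.25. The share that passed was 28.6%, against 50.9% of all genes.

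In edgeR's test of all 12 libraries neither XPO7 shRNA gave a called difference in any tested member. In edgeR's test of shXPO7_3 against induced cells 0 of 44 members passed, where 0.124% of all genes did, and 4 members had an unadjusted p below 0.05, against 6.41% of all genes. For shXPO7_5 against induced cells 0 of 44 passed, where 0.589% of all genes did, with 8 members at an unadjusted p below 0.05 against 21.6% of all genes. DESeq2 called 0 members for shXPO7_3, where it called 0.576% of all genes, and 1 for shXPO7_5, where it called 2.79%. Groups did not overlap for 7 of 44 members in each comparison, against 14.6% of all genes for shXPO7_3 and 26.8% for shXPO7_5. Both comparisons share the 3 induced libraries. Median log2 fold changes over the 44 members were 0.01 and 0.05, against -0.00 and 0.01 over all genes.

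**Figure D5:**
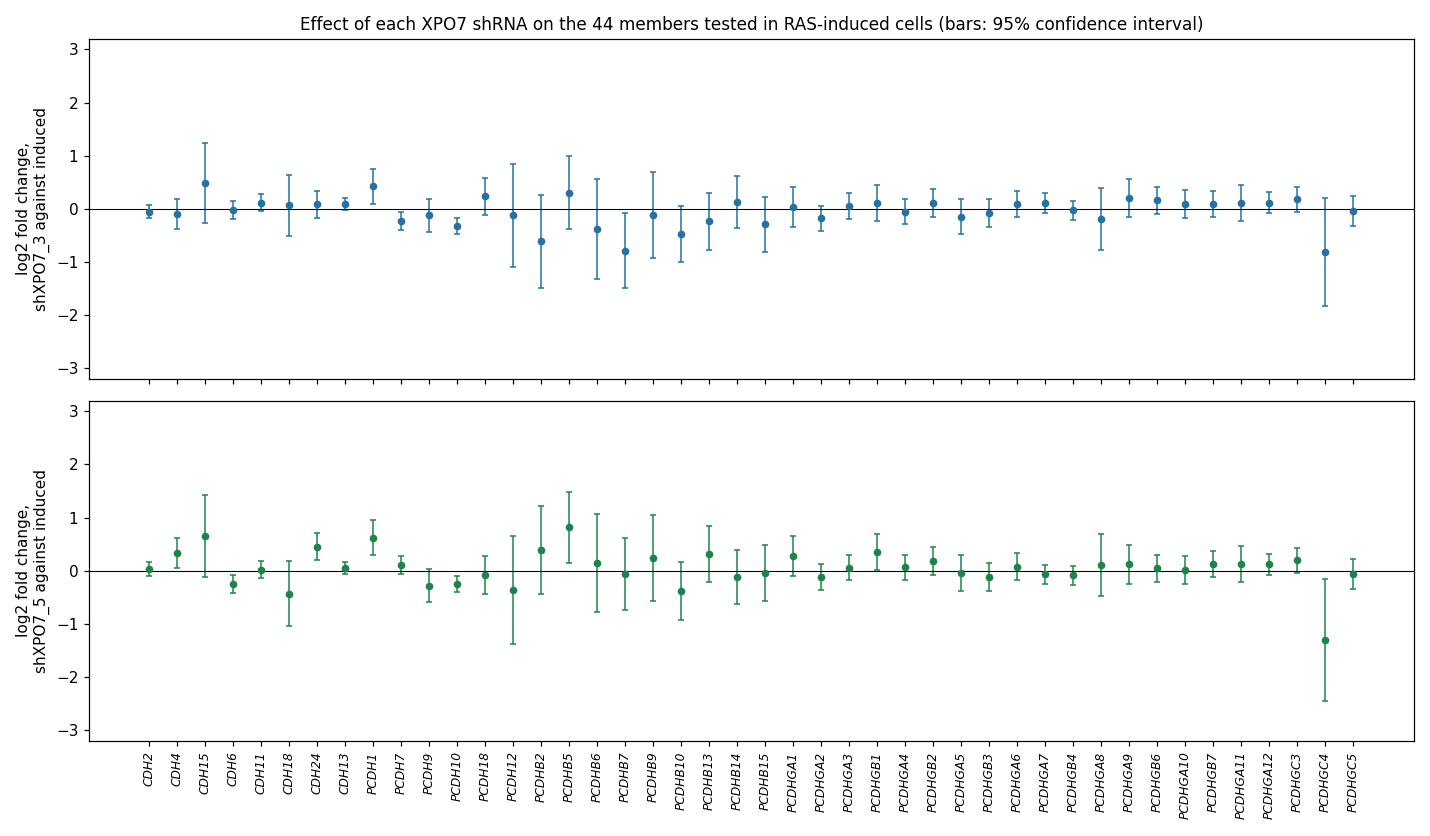
Log2 fold change of the 44 tested members with shXPO7_3 (top) and shXPO7_5 (bottom) against induced cells, with 95% confidence intervals. Intervals are narrow for abundant genes such as CDH2 and wide for scarce ones such as PCDHGC4, which has the lowest value in both panels (-0.81 and -1.30), and edgeR called no member in the 12 libraries.

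The members with the lowest p-values were mostly those outside the clusters. PCDH10, which rose with RAS, had 21.0, 20.9 and 21.3 CPM with shXPO7_3 and 22.2, 21.8 and 22.2 CPM with shXPO7_5. All 6 libraries lay between the non-induced range of 18.2 to 19.1 CPM and the induced range of 24.4 to 27.9 CPM. The log2 fold changes were -0.32 (95% interval -0.47 to -0.17; edgeR, adjusted p = 0.124) and -0.25 (-0.40 to -0.10; adjusted p = 0.111). PCDH1, which also rose with RAS, was further up with the shRNAs, at 2.72, 2.14 and 2.44 CPM with shXPO7_3 and 3.07, 2.57 and 2.78 CPM with shXPO7_5, all above the highest induced library at 1.94. Its log2 fold changes were 0.42 (edgeR, adjusted p = 0.536) and 0.62 (adjusted p = 0.0841).

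With shXPO7_5, CDH24 stood at 7.48, 8.24 and 9.72 CPM, above the induced libraries at 5.99 to 6.56 and below the non-induced ones (log2 fold change 0.45, edgeR, adjusted p = 0.0916). CDH6 was at 194, 206 and 178 CPM with shXPO7_5 against 236, 237 and 214 CPM in induced cells (log2 fold change -0.25, edgeR, adjusted p = 0.160). For shXPO7_5 the lack of edgeR calls depended on library A, for all genes as for members. Without library A of shXPO7_5, 6 of 45 members passed in edgeR, where 23.0% of all genes did. PCDH1 (log2 fold change 0.69, edgeR, adjusted p = 0.0334), CDH24 (0.48, adjusted p = 0.0370) and CDH6 (-0.30, adjusted p = 0.0391) were among them. The others were PCDH9 (-0.43, edgeR, adjusted p = 0.0441), PCDH10 (-0.24, adjusted p = 0.0463) and PCDHGB1. The log ratios of libraries T, A and B to the induced mean had a Spearman rho with GC content of 0.59, 0.12 and 0.76 across genes (genes are no independent replicates), and the part of GC content in these calls was not tested. In all 12 libraries with GC content and length corrected for, where the uncorrected test also called none, 0 members passed for either shRNA against induced cells, where 2.07% (shXPO7_3) and 2.81% (shXPO7_5) of all genes did.

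The cluster sums gave no call either. For PCDHG the log2 fold changes were 0.08 with shXPO7_3 (95% interval -0.11 to 0.27) and 0.08 with shXPO7_5 (-0.11 to 0.28), and for PCDHB they were -0.23 (-0.52 to 0.06) and 0.13 (-0.16 to 0.42). The PCDHA sum, at 0.323 ± 0.077 CPM with shXPO7_3 and 0.449 ± 0.092 CPM with shXPO7_5, rested on 9 to 20 counts per library. Its log2 fold changes were 0.42 (edgeR, adjusted p = 0.9996) and 0.91 (adjusted p = 0.188). PCDHGC3 was at 63.6 ± 6.37 and 64.3 ± 7.63 CPM, and its share of the cluster's counts was 31.0 ± 0.380% with shXPO7_3 and 31.3 ± 1.59% with shXPO7_5, both nearer to the induced than to the non-induced share.

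Between the 2 shRNAs, 0 of 44 members passed in edgeR, where 0.0131% of all genes did; 7 members had an unadjusted p below 0.05, against 11.9% of all genes, and DESeq2 called 0. The lowest p belonged to PCDH7, at 11.99, 11.9 and 12.9 CPM with shXPO7_3 and 14.9, 16.3 and 15.6 CPM with shXPO7_5 (log2 fold change 0.34, 95% interval 0.17 to 0.52; edgeR, adjusted p = 0.346). With the correction for GC content and length PCDH7 was called (0.38, adjusted p = 0.0487), where 0.196% of all genes were.

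The 64 genes on lists of cadherin partners, of which 44 were tested, showed 8 higher and 17 lower with RAS induction, where 50.9% of all genes were called. Among catenins and junction proteins 2 of 14 rose and 4 fell. JUP, plakoglobin, which links cadherins of both junction types, rose from 72.9 ± 7.07 to 159 ± 0.855 CPM (log2 fold change 1.12, edgeR, adjusted p = 3.23e-06). On the log2 scale CTNNAL1, alpha-catulin, fell by 0.68, ARVCF, a p120-type catenin, by 0.46 and VCL, vinculin, by 0.45. The core catenins CTNNA1 (-0.00) and CTNNB1 (-0.06), named here outside the rule, did not pass, with 535 ± 27.2 against 534 ± 11.9 CPM for CTNNA1.

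Of the 6 tested desmosome genes DSP, desmoplakin, rose (0.33) and 4 fell, where 24.8% of all genes tested rose and 26.1% fell. The falls included DSG2 (-1.05), the desmoglein of simple epithelia, and PKP4 (-0.64), a plakophilin of the p120 family. The steepest of these falls were those of the plakophilins PKP3 (-1.64, from 0.827 to 0.255 CPM) and PKP1 (-1.31, from 0.672 to 0.265 CPM), which are below the level that the naming rule asked for and were named after their values were seen. Of 12 other genes of the cadherin superfamily 1 rose, the planar polarity cadherin CELSR1 (0.33), and 7 fell, against the same 24.8% and 26.1% of all genes. The falls included the giant cadherin FAT4 and its ligand DCHS1, which signal to the Hippo pathway and planar polarity. DCHS1 went from 29.7 ± 3.14 to 8.34 ± 0.517 CPM (log2 fold change -1.83, edgeR, adjusted p = 5.19e-07) and FAT4 from 57.4 ± 3.34 to 17.98 ± 1.90 CPM (-1.68, adjusted p = 1.04e-07). FAT3, another giant cadherin, fell by 1.95.

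Regulators known to act on cadherin or protocadherin promoters gave 4 higher and 2 lower of 12 tested, where 50.9% of all genes were called. Among the SNAI and ZEB repressors of CDH1, ZEB1 (1.30) and SNAI1 (1.08) rose and SNAI2 (-0.84) fell. REST (0.58), a repressor of neuronal genes, rose, and the cohesin subunit RAD21 (-0.58) fell. CTCF, named outside the rule, was at 55.1 ± 0.564 and 53.3 ± 0.535 CPM and did not pass (log2 fold change -0.05, edgeR, adjusted p = 0.523). CAGGTG, the letters bound by SNAI and ZEB proteins, was found on either strand in 4 of 38 windows (23 genes) of members outside the clusters and 5 of 49 cluster windows (45 genes), against 20.6% of all windows. With the shRNAs 0 of the 44 tested partner genes passed in edgeR, with 6 and 10 at an unadjusted p below 0.05 for shXPO7_3 and shXPO7_5, against 6.41% and 21.6% of all genes. DESeq2 called 0 and 4 of them, against 0.576% and 2.79% of all genes.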

How the data were processed

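For each of 12 libraries, made with an Illumina stranded mRNA kit, the authors deposited raw gene counts with no normalization. Tools in the submitters' processing notes are CASAVA 1.8.4, TopHat2 2.0.11 and featureCounts 1.18.0, with hg19 and GRCh37 as builds. The gene annotation, the use of strand and the treatment of shared exons in counting were not given in the sources used here. Spike-in entries, 92 in number and all at 0, were left out. Groups came from the labels. Genes were named by Ensembl identifier, with positions and exon lengths from GENCODE 29 on GRCh38.

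Counts were filtered (filterByExpr, 15284 genes), scaled by TMM and fitted with edgeR 4.0.16 (quasi-likelihood, all 12 libraries, 4 groups, no covariates) in R 4.3.3; Benjamini-Hochberg adjustment ran over all genes tested, with a threshold of 0.05. Cluster sums came from a separate fit, in which the PCDHA, PCDHB and PCDHG members were replaced by 1 summed row per cluster before filtering. The scripts were tested on simulated data. Alternatives were RLE and upper-quartile factors, other filters, a replicate block, fits to 2 groups, each library left out, DESeq2 1.42.0 and a GC content and length offset (97.3% of genes had values). Totals of 28534141 to 60397769 counts limited precision for members under 1 CPM. Library pairs within groups differed by more than sampling noise. Members outside the clusters, the 5 most abundant and 2 most changed called members of each cluster, and up to 3 called partner genes each way per list were named. Members and lists were chosen with earlier results of these data known. A partner gene and a sequence that these rules would name are not reported here.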

Additional observations from a re-analysis of the deposited data

How the results depend on the processing

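Between induced and non-induced cells, 18 to 29 members were called over 20 alternatives, against 25 in the analysis reported. When single libraries were left out, 21 to 28 were called. Calls among all genes then ran from 6762 (of 15541 tested, without induced library B) to 8405 (of 15790 tested, without library A of shXPO7_5). The numbers tested differed. With 1 CPM required in at least 6 libraries, 18 of 31 members were called, and 6735 of 12483 genes. Without the filter 25 of 77 members were called, and 7806 of 31672 genes. Upper-quartile scaling called 29 of 44 members, and 7505 of 15284 genes. Partner genes called ranged from 21 to 30, and from 21 to 27 without single libraries, where 6762 to 8405 of all genes were called. The 30 came with the GC content and length correction, where 9656 of 15284 genes were called. Of the 19 called members named by rule, 16 were called under every alternative that tested them, 3 (CDH13, PCDHB6 and PCDHGA1) were lost at least once, and none reversed. Of the members named by rule but not called, 4 (PCDH18, PCDHB13, PCDHGB4 and PCDHGA11) were called under at least 1 alternative. The 3 cluster sums kept their direction and calls under each alternative run, at -2.12 to -1.74 (PCDHA), -1.20 to -0.995 (PCDHB) and -0.41 to -0.16 (PCDHG) on the log2 scale; PCDHA could not be fitted under the filter of 1 CPM in at least 6 libraries. For shXPO7_5 against induced cells, members called were 0 to 6 when single libraries were left out, and partner genes called were 0 to 12. The 6 and the 12 came without library A of shXPO7_5, where 23.0% of all genes were called. DESeq2 called 1 member (CDH24) and 4 partner genes, and 2.79% of all genes. RLE factors gave 1 partner gene and 127 of all 15284 genes, and the replicate block 1 and 149. Without a filter 1 partner gene and 217 of 31672 genes were called. With the GC content and length correction 2 partner genes were called for each shRNA. That correction called 2.81% (shXPO7_5) and 2.07% (shXPO7_3) of all genes. Between the shRNAs it called 1 member, and 0.196% of all genes. The cause of these shifts was not tested. Deviations of libraries from their group means correlated at -0.20 to 0.57 (median 0.09) in 15 same-letter pairs, of which 7 were above 0.1. The median was -0.06 in pairs of unlike letters. The labels do not say whether letters pair the libraries. With the replicate block, 25 members and 7987 of 15284 genes were called between induced and non-induced cells. CDH13 (0.15, edgeR, adjusted p = 0.0819) and PCDHB9 were no longer among these members, and PCDH18 and PCDHGA11 were added. Each shRNA comparison called 0 members with the block. Of all genes it called 13 for shXPO7_3 and 149 for shXPO7_5 against induced cells, and 3 between the shRNAs. At this depth changes in members under 1 CPM are estimated with wide intervals, and the split of reads among cluster genes is uncertain.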
